A study of Rattus norvegicus with 24 samples.

Results

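The genes of voltage-gated sodium and calcium channels were followed across cultures of rat striatal neurons given a D1 dopamine receptor agonist, a bromodomain inhibitor, both or neither. They were picked by gene symbol (Scn with a number and a or b, Cacna1, Cacna2d and Cacnb), which gave 32 of the 32883 genes in the files. No measured value entered that rule, but the channel genes were chosen as a subject with earlier results of these data known. The 30 described here are 12 sodium channel genes (9 pore-forming and 3 beta subunits) and 18 calcium channel genes (10 pore-forming, 4 alpha2delta and 4 beta subunits).

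Voltage-gated sodium channels open on depolarisation and carry the upstroke of the action potential, and their beta subunits are single-pass membrane proteins that tune gating and cell adhesion. Voltage-gated calcium channels turn depolarisation into calcium entry: the L-type pores feed signals to gene transcription, the P/Q-, N- and R-type pores trigger transmitter release, and the T-type pores open near the resting potential. Their alpha2delta subunits lie outside the membrane and their beta subunits inside the cell, and both raise the number of channels at the surface. In striatal projection neurons, which are GABAergic and carry dopamine receptors, sodium and L-type calcium currents are known targets of dopamine signalling.

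The cultures were made from neonatal rat striatum and had been kept for 7 days, and each received 2 additions drawn from SKF, the D1 receptor agonist, a bromodomain inhibitor and the vehicle DMSO. Total RNA was sequenced after removal of ribosomal RNA, and 23 libraries in 12 groups over 3 experiments were analysed. Experiment 1 held SKF plus JQ1, SKF, JQ1 and DMSO at 60 min, experiment 2 held SKF plus iBD2, SKF, iBD2 and DMSO at 60 min, and experiment 3 held SKF plus JQ1, SKF, JQ1 and DMSO at 24 h. Each group had 2 libraries, except SKF plus iBD2 with 1, and libraries are named by the replicate numbers of the labels. The SKF group received SKF with DMSO, the inhibitor groups the inhibitor with DMSO, and the DMSO group vehicle in both places. JQ1 blocks both bromodomains of the BET proteins, which read acetylated histones; iBD2 is the inhibitor that the design sets beside it. The labels give no doses and do not tell whether replicates are separate cultures. The p-values therefore cover only how far these libraries vary, and that variation may be technical. The 24 h libraries all belong to experiment 3, so time and experiment cannot be told apart in any comparison of 24 h with 60 min.

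The libraries held 4.36 to 14.9 gigabases of aligned sequence. Fos, an immediate early gene, rose with SKF at 60 min by a log2 change of 2.11 ± 0.12 (SE; limma, Benjamini-Hochberg adjusted p = 4.14e-08), and Hexim1, which is induced when BET proteins are blocked, rose with JQ1 at 60 min by 1.23 ± 0.09 (adjusted p = 8.52e-08). Hexim1 rose by 0.52 ± 0.09 with iBD2 (limma, adjusted p = 0.0231). The 9 neuronal markers together summed to 2310 to 2954 FPKM over all libraries, and muscle markers to at most 1.89 FPKM. Endothelial and mural cell markers summed to at most 0.488 FPKM. These are bulk samples, in which fewer cells of a type and less RNA per cell cannot be told apart.

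Levels are given as scaled FPKM, the authors' FPKM (fragments scaled to transcript length and library size) divided by a size factor for the library (0.947 to 1.07), so they are per length and can be set side by side between genes. Tests used log2(scaled FPKM + 0.5), which understates the change of low genes, and a gene was tested if its FPKM was at least 0.5 in at least 2 libraries. That left 13999 genes and 23 of the 30 channel genes: 6 of 9 sodium channel pores, 2 of 3 sodium channel beta subunits, 8 of 10 calcium channel pores, 3 of 4 alpha2delta subunits and 4 of 4 calcium channel beta subunits. The 7 others never passed 0.167 scaled FPKM: Scn4a, the pore of skeletal muscle; Scn10a and Scn11a, pores of sensory neurons; Scn4b, a beta subunit; Cacna1s, the L-type pore of skeletal muscle; Cacna1f, the L-type pore of the retina; and Cacna2d4. Of the tested genes, 22 reached 0.5 FPKM in all 23 libraries, and Scn7a reached it in 16, among them all 4 given JQ1 for 24 h.

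In the 6 DMSO libraries Scn2a and Scn3a led the sodium channel pores. Among sodium channel pores Scn2a, the pore of young axons, had a median of 36.7 scaled FPKM (34.2 to 39.4), and Scn3a, which is high around birth, had 30.1 (27.6 to 30.6). Scn8a, the main pore of mature axon initial segments, had 13.1 (11.1 to 15.6), and Scn1a, which serves interneuron firing in particular, had 11.7 (10.4 to 12.4). Scn2a and Scn3a thus lay above Scn8a and Scn1a in every DMSO library, and the ranges of Scn8a and Scn1a overlapped. The sensory neuron pore Scn9a had 1.69 and Scn7a, a sodium sensor of glia and sensory ganglia, 1.14 scaled FPKM. Scn3b had the highest median of the 30 genes, 54.1 scaled FPKM, and Scn2b had 18.3. In the DMSO libraries of experiment 2, however, Cacna2d2 lay above Scn3b.

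Among calcium channel pores the R-type Cacna1e had the highest DMSO median, 24.5 scaled FPKM. The N-type Cacna1b had 17.7, the L-type Cacna1c 16.2 and the P/Q-type Cacna1a 15.0, and the second L-type gene of neurons, Cacna1d, had 8.51. The T-type pores Cacna1g, Cacna1i and Cacna1h lay together at 7.75, 6.91 and 6.57 scaled FPKM. Of the auxiliary subunits, Cacnb3 had 48.2, Cacna2d2 42.3, Cacna2d1 25.9, Cacnb1 24.1, Cacna2d3 20.3, Cacnb4 19.2 and Cacnb2 7.26 scaled FPKM. Ordered by median, 18 of the 22 neighbouring pairs of tested genes had overlapping ranges over the 6 libraries. The 4 pairs whose ranges were apart were Scn2a over Scn3a, Scn1a over Cacna1d, Cacna1d over Cacna1g, and Cacna1h over Scn9a.

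**Figure D1:**
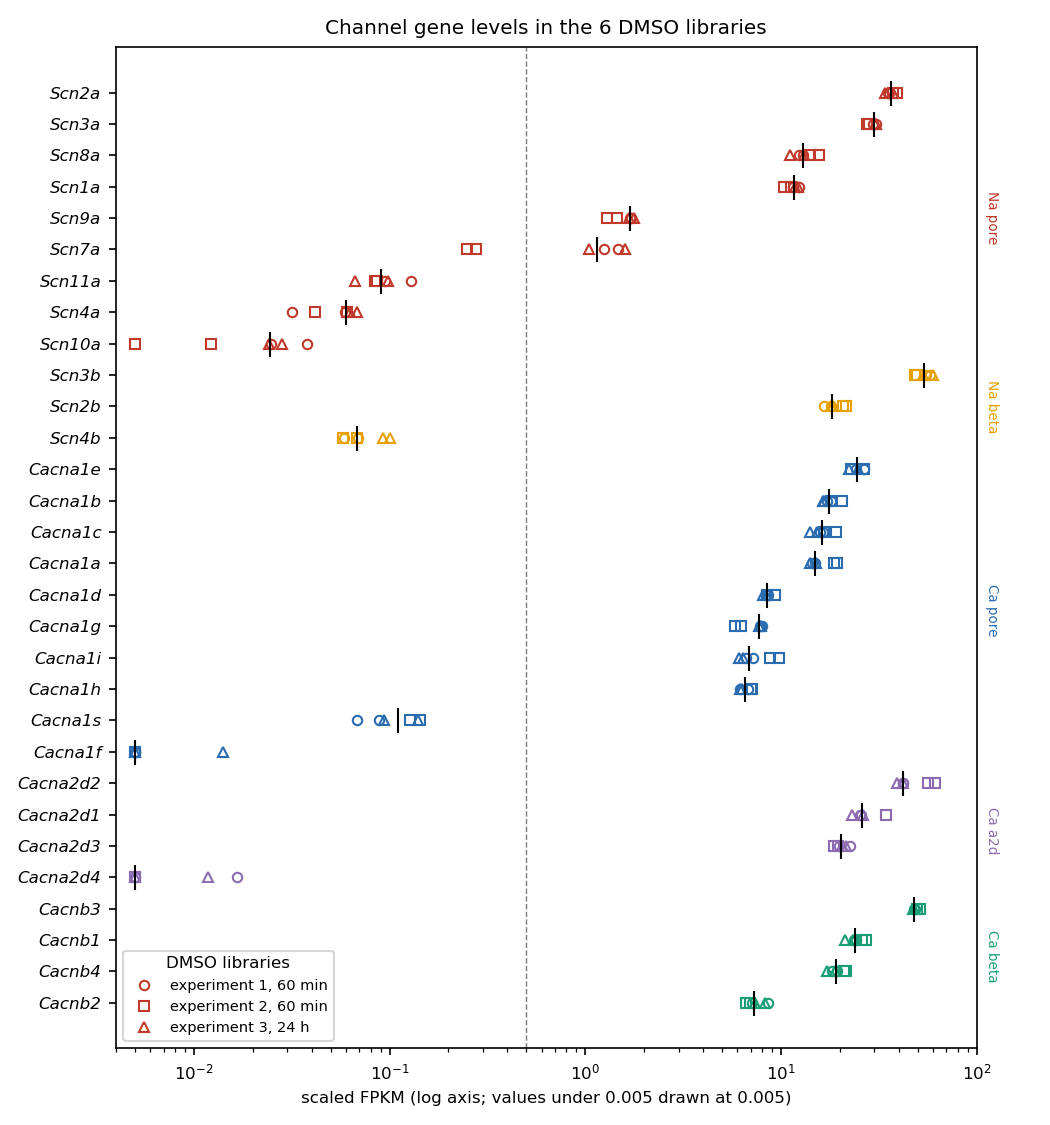
Scaled FPKM (log axis) of the 30 channel genes in the 6 DMSO libraries, each point 1 library and each black bar the median, with symbols for the experiment and colours for the subunit class. The dashed line marks 0.5 FPKM, and 23 genes have medians above 0.5 and 7 never passed 0.167; values under 0.005 are drawn at 0.005.

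Experiment 2 stood apart from the others for several of these genes. Cacna2d2 lay at 56.8 and 61.3 scaled FPKM in the DMSO libraries of experiment 2 and at 39.0 to 42.3 in the other 4, and Cacna1i at 8.83 and 9.77 against 6.12 to 7.17. Scn7a ran the other way, at 0.249 and 0.277 against 1.05 to 1.59. Astrocyte markers summed to 119 to 131 FPKM in experiment 2 and to 320 to 472 FPKM in experiments 1 and 3; their part in these levels was not tested. Groups were compared within an experiment, except where 2 effects were subtracted.

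The promoters of the sodium channel genes differ in base composition, and 4 of them are shown because 3 of their genes fell with JQ1 at 24 h and 1, Scn8a, was not called. Sequences are those of RefSeq on GRCr8, 300 bases from 250 before to 50 after the annotated start, read 5′ to 3′ on the strand of the gene, with each CG dinucleotide in capitals. The files use the older build Rnor_6.0, in which Scn3a, for example, spans chr3:51532627-51643140. The promoters of Scn3a (chr3:70666149-70666448, minus strand), Scn2a (chr3:70710706-70711005, plus strand), Scn2b (chr8:54322133-54322432, plus strand) and Scn8a (chr7:133860977-133861276, plus strand) read as follows.
Scn3a: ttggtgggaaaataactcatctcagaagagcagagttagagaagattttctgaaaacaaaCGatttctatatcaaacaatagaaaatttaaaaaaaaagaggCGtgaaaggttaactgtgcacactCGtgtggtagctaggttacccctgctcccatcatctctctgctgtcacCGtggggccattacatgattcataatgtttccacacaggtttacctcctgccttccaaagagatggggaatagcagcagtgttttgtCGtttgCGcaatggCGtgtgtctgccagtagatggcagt
Scn2a: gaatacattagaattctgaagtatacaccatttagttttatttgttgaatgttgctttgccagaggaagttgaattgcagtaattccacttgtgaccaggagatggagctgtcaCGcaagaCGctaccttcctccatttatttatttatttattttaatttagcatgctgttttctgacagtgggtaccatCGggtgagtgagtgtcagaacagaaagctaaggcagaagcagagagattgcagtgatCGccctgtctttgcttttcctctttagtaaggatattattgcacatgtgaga
Scn2b: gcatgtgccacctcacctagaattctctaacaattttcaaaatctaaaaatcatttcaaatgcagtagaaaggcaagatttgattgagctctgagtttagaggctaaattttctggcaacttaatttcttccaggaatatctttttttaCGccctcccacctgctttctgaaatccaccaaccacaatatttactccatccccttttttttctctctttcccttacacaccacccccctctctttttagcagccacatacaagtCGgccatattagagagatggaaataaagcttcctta
Scn8a: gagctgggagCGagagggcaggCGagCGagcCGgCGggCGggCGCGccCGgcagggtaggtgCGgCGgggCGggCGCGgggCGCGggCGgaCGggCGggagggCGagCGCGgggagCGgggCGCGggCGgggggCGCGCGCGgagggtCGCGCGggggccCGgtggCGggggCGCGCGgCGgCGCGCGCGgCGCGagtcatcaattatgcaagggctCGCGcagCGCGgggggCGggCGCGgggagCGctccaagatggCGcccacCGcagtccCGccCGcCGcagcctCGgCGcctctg
Scn3a held 7 CG dinucleotides, Scn2a 4 and Scn2b 2, while Scn8a held 60. Over all 27457 promoters of the same length in the RefSeq table the median was 7 and the quartiles were 3 and 20. Promoters with 7 or fewer made up 50.1% of them and those with 60 or more 0.0583%. Of the 30 genes 22 had an entry. The GC box GGGCGG, searched on both strands, occurred in 12 of the 22, Scn8a among them with 7 copies, and in 34.9% of all promoters. The AP-1 letters TGANTCA occurred in 1 of the 22, Scn3a, and in 7.33% of all promoters, and the cAMP response element TGACGTCA in 0 of the 22 and in 1.91% of all. CG content did not part the genes that fell from the rest, since Cacna1d with 66, Cacnb3 with 44 and Cacnb2 with 37 also fell with JQ1 at 24 h. These are descriptions of letters in 1 annotated window for each gene, which need not be the start in use in these cells.

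At 60 min no channel gene passed the test in any comparison. With SKF, 0 of the 23 were called over experiments 1 and 2 (3.98% of the 13999 genes were), 0 in experiment 1 alone (1.71% of all genes) and 0 in experiment 2 alone (2.32% of all genes). With JQ1 0 of 23 were called against DMSO (4.4% of all genes), and 0 for SKF plus JQ1 against SKF (6.54% of all genes). With iBD2 0 were called against DMSO (0.171% of all genes) and 0 for SKF plus iBD2 against SKF (0.0214% of all genes). In the order just given, 1, 0, 1, 1, 1, 0 and 1 of the 23 had an unadjusted limma p under 0.05, and limma-voom on estimated reads called 0 in each, except 1 for SKF in experiment 2. The medians of the 23 log2 changes lay between -0.03 and 0.04.

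The gene nearest to a call at 60 min was Scn1a with SKF in experiment 2, at 9.04 and 9.34 scaled FPKM in SKF libraries against 10.4 and 11.2 in DMSO libraries. The groups did not overlap, and the log2 change was -0.22 ± 0.06 (SE; limma, adjusted p = 0.0721). In experiment 1 Scn1a had 12.1 and 11.1 scaled FPKM with SKF against 11.5 and 12.4 with DMSO, which overlapped. The SKF effect in experiment 2 did not differ from that in experiment 1 past the threshold for Scn1a (log2 difference -0.18 ± 0.09, limma, adjusted p = 1), nor was any of the 13999 genes called in that comparison, where 492 had an unadjusted p under 0.05.

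Cacna2d3 came nearest with JQ1 at 60 min. This alpha2delta subunit had 23.9 and 24.0 scaled FPKM with JQ1 and 22.6 and 19.9 with DMSO, a log2 change of 0.17 ± 0.06 (limma, adjusted p = 0.115). With SKF present it had 24.3 and 23.5 in SKF plus JQ1 libraries and 21.0 and 22.3 in SKF libraries (0.14 ± 0.06, limma, adjusted p = 0.189). Cacna2d3 was higher in all 4 libraries with JQ1 than in all 4 without, as were 6.39% of all genes, and 0 of the 23 channel genes were lower in all 4 (7.14% of all genes were). The 95% intervals of the 23 log2 changes with JQ1 reached from -0.50 (Scn7a) to 0.29 (Cacna2d3), and SEs ran from 0.04 to 0.18.

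Neither iBD2 comparison called a channel gene, and 95% intervals for iBD2 against DMSO reached from -0.51 to 0.35. Scn3b had 46.2 and 46.8 scaled FPKM with iBD2 and 49.9 and 48.6 with DMSO (log2 change -0.08 ± 0.06, limma, adjusted p = 0.888), and 45.4 with SKF plus iBD2 against 48.1 and 50.1 with SKF. Scn3b and Scn7a were the 2 channel genes lower in all 3 libraries with iBD2 than in all 4 without, as were 3.11% of all genes, and 0 were higher in all 3 (3.94% of all genes were). JQ1 and iBD2 were used in different experiments. Their effects at 60 min, each against its own DMSO group, differed past the threshold for 0 of the 23 (0.907% of all genes), with 0 at an unadjusted p under 0.05 and 0 called by voom. The smallest p was that of Cacnb1 (log2 difference 0.13 ± 0.09, limma, adjusted p = 0.767). Over the 23 genes the 95% intervals of the difference lay within -0.52 to 0.54.

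After 24 h of SKF alone, 0 of the 23 channel genes were called (1.49% of all genes were), with 2 at an unadjusted limma p under 0.05 and 1 called by voom. The smallest p was that of Scn9a. It had 1.49 and 1.31 scaled FPKM with SKF against 1.77 and 1.68 with DMSO, and the groups did not overlap (-0.23 ± 0.08, limma, adjusted p = 0.296). The SKF effect at 24 h differed from that at 60 min past the threshold for 0 of the 23 (2.45% of all genes), with 1 at an unadjusted p under 0.05 and 0 called by voom.

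After 24 h of JQ1, 5 of the 6 tested sodium channel pores were called lower, Scn8a was not called, and calcium channel genes were called in both directions. With SKF in the medium 4 of the 6 pores were called lower, and Scn7a and Scn8a were not. Against DMSO 11 of the 23 channel genes fell (28.6% of all genes did), 2 rose (28.1% of all genes did) and 10 were not called. The median log2 change of the 23 was -0.21, beside 0.01 over all genes. With SKF in the medium, SKF plus JQ1 against SKF, 13 fell (28.7% of all genes) and 2 rose (27.7% of all genes), with a median of -0.21 beside 0.00 over all genes. In the 2 comparisons 10 genes fell in both, which is 10 of 11 and 10 of 13, and the same 2 rose. Calls shared by the 2 comparisons were not counted over all genes. Of all genes 29.6% were lower and 29.4% higher in every 24 h library with JQ1 than in every one without. The groups of these comparisons are separate libraries, but of the same experiment and the same fit. Without size factors 2588 genes rose and 4963 fell with JQ1, against 3933 and 3999 with them, and of the 23 channel genes 14 fell and 0 rose.

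**Figure D2:**
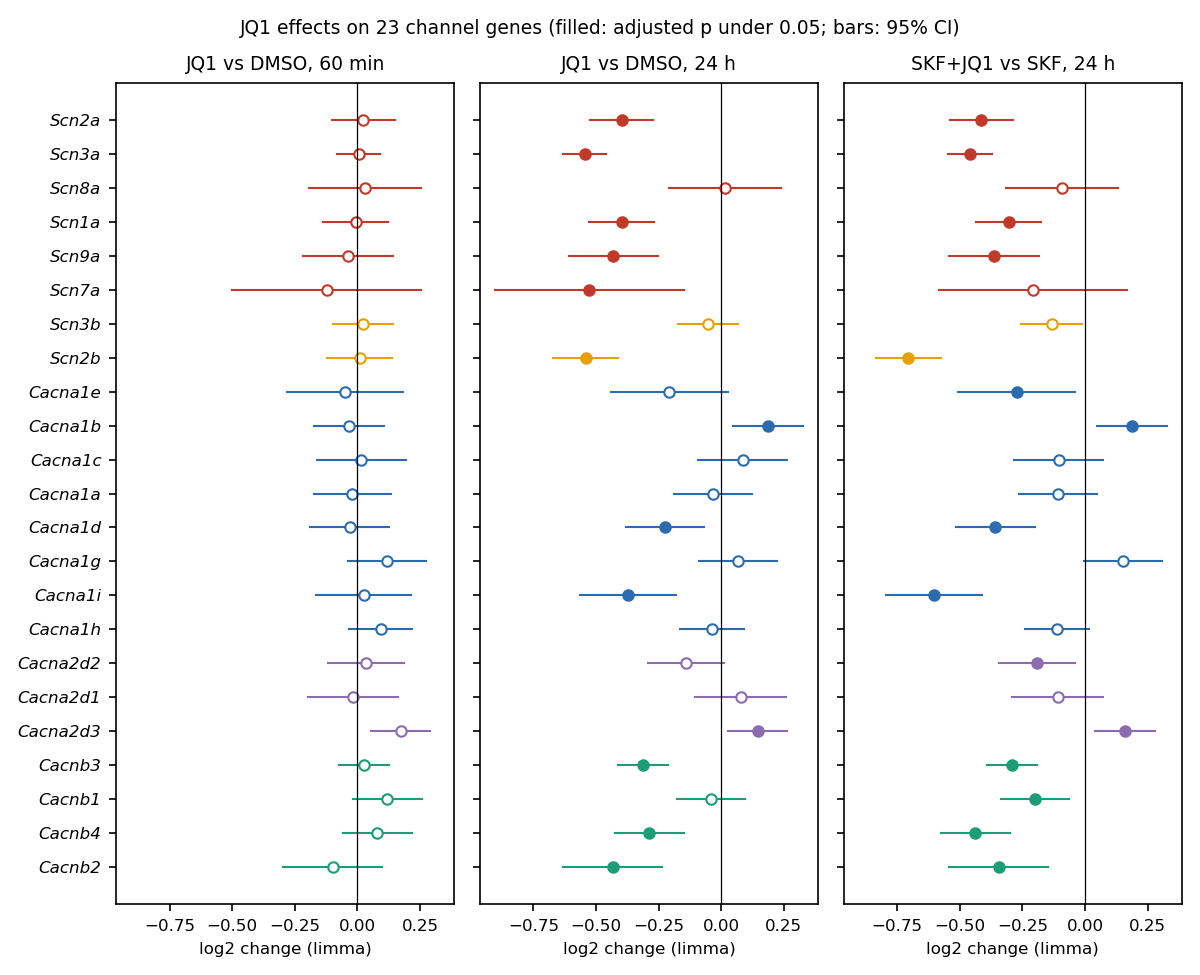
Log2 change (limma, x axis) of the 23 tested channel genes with JQ1 against DMSO at 60 min, with JQ1 against DMSO at 24 h and with SKF plus JQ1 against SKF at 24 h. Points are estimates, bars 95% intervals, filled points have an adjusted p under 0.05 and colours give the subunit class; no point is filled at 60 min, while 13 and 15 are at 24 h.

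Scn3a gave the most precise fall. It had 20.8 and 20.7 scaled FPKM with JQ1 and 30.6 and 30.4 with DMSO (means 20.7 ± 0.0833 and 30.5 ± 0.139, SD, n = 2 each). With SKF present it had 21.1 and 22.2 in SKF plus JQ1 libraries and 29.8 and 30.1 in SKF libraries. All 4 libraries with JQ1 lay below all 4 without, and the log2 changes were -0.55 ± 0.04 (SE; limma, adjusted p = 1.21e-08) and -0.46 ± 0.04 with SKF (adjusted p = 8.70e-08). Scn2a had 26.1 and 28.1 scaled FPKM with JQ1 and 34.2 and 37.5 with DMSO, and 25.8 and 28 with SKF plus JQ1 and 35.4 and 36.6 with SKF. Its groups did not overlap either, at log2 changes of -0.40 ± 0.06 (limma, adjusted p = 2.55e-05) and -0.41 ± 0.06 with SKF (adjusted p = 1.65e-05).

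Scn1a had 9.51 and 8.5 scaled FPKM with JQ1 and 12.2 and 11.8 with DMSO, and 8.67 and 8.56 with SKF plus JQ1 and 10.7 and 10.8 with SKF. Again every library with JQ1 was below every library without. The log2 changes were -0.40 ± 0.06 (limma, adjusted p = 3.71e-05) and -0.30 ± 0.06 with SKF (adjusted p = 0.000468). Scn9a fell by 0.43 ± 0.08 on the log2 scale (limma, adjusted p = 0.000367) and by 0.36 ± 0.08 with SKF (adjusted p = 0.00151).

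Scn8a was not called. It had 11.3 and 13.2 scaled FPKM with JQ1 and 11.1 and 13.1 with DMSO, and 10.8 and 13.1 with SKF plus JQ1 and 12.4 and 13.0 with SKF. The libraries overlapped throughout, and the log2 change was 0.02 ± 0.11 (limma, adjusted p = 0.911), with a 95% interval of -0.21 to 0.24. With SKF present the log2 change was -0.09 ± 0.11 (limma, adjusted p = 0.483), with a 95% interval of -0.32 to 0.13, which takes in the change of Scn1a in that comparison. Whether the change of Scn8a differed from those of the other pores was not tested. The 9 sodium channel pore genes reported summed to 69.9 and 72.2 scaled FPKM with JQ1 against 91.7 and 95.7 with DMSO, and to 68.4 and 73.5 with SKF plus JQ1 against 91.1 and 92.9 with SKF. Of that sum Scn8a made up 16.2 and 18.3% with JQ1 against 12.1 and 13.7% with DMSO, and 15.8 and 17.8% with SKF plus JQ1 against 13.6 and 14.0% with SKF. The share of Scn8a was thus higher in all 4 libraries with JQ1 than in all 4 without, while its own level overlapped. The share was chosen after the data were seen. It restates the lower sum of the pores and is no separate result.

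**Figure D3:**
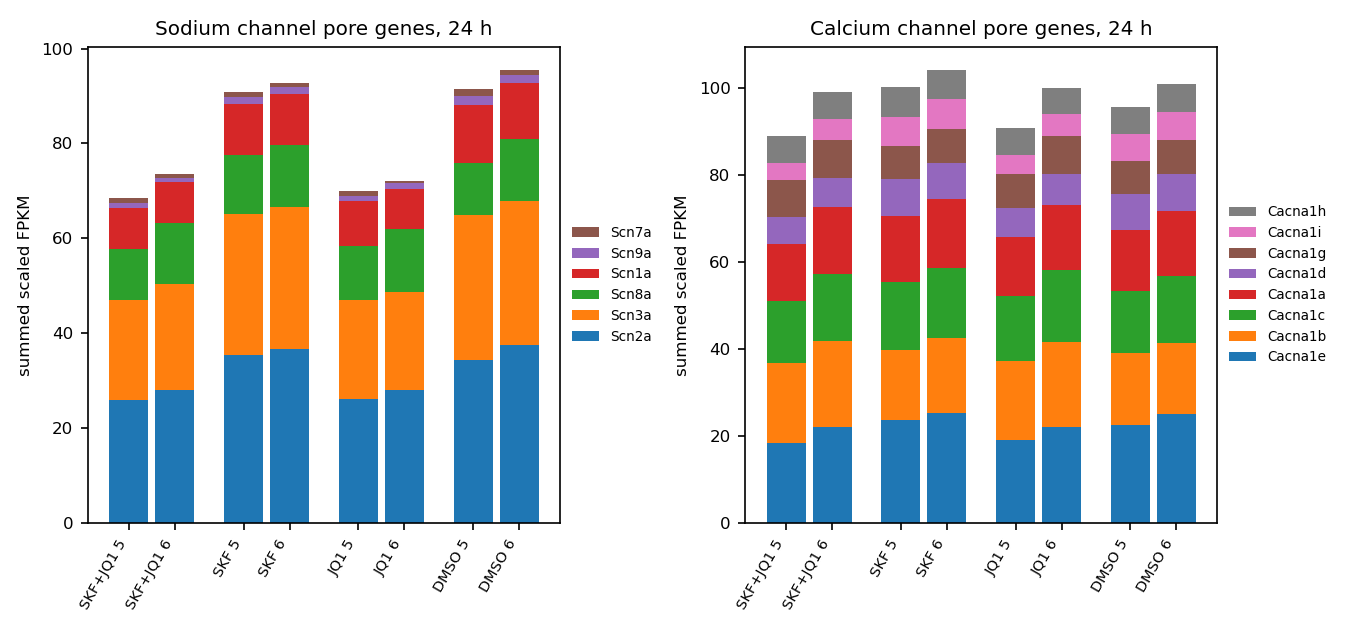
Scaled FPKM of the tested sodium (left) and calcium (right) channel pore genes reported, stacked by gene, in each 24 h library; labels give the group and replicate number. The sodium channel sum is 68.4 to 73.5 in libraries with JQ1 and 91.1 to 95.7 in those without, and the calcium channel sums overlap, at 88.8 to 100.01 and 95.6 to 104.3.

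Scn7a was the lowest of the 6 sodium channel pores described and tested. It had 0.945 and 0.581 scaled FPKM with JQ1 and 1.59 and 1.05 with DMSO, and the call (-0.53 ± 0.18, limma, adjusted p = 0.0187) was lost without DMSO replicate 5 (-0.31, adjusted p = 0.226) and without JQ1 replicate 6 (-0.32, adjusted p = 0.219). With SKF present its groups overlapped, at 0.995 and 0.690 against 1.19 and 0.908 (-0.21 ± 0.18, limma, adjusted p = 0.338).

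Of the sodium channel beta subunits Scn2b fell and Scn3b did not pass the test. Scn2b, which binds the pore through a disulfide bond, had 12 and 12.8 scaled FPKM with JQ1 and 18.0 and 18.5 with DMSO, and 11.5 and 11.3 with SKF plus JQ1 and 19.1 and 18.7 with SKF. Its groups did not overlap, and the log2 changes were -0.54 ± 0.06 (limma, adjusted p = 1.49e-06) and -0.71 ± 0.06 with SKF (adjusted p = 6.99e-08). Scn3b had 53.4 and 55.1 with JQ1 and 53.1 and 59.7 with DMSO (-0.05 ± 0.06, limma, adjusted p = 0.441), and 49.8 and 54.6 with SKF plus JQ1 and 58.7 and 55.9 with SKF (-0.13 ± 0.06, adjusted p = 0.0568). Without size factors Scn3b was called lower in both comparisons (-0.20, limma, adjusted p = 0.00156, with SKF and -0.15, adjusted p = 0.0125, without). With SKF it was also called lower by voom, and when DMSO replicate 5, DMSO replicate 6 or SKF plus JQ1 replicate 6 was left out (adjusted p = 0.0188 to 0.0336).

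**Figure D4:**
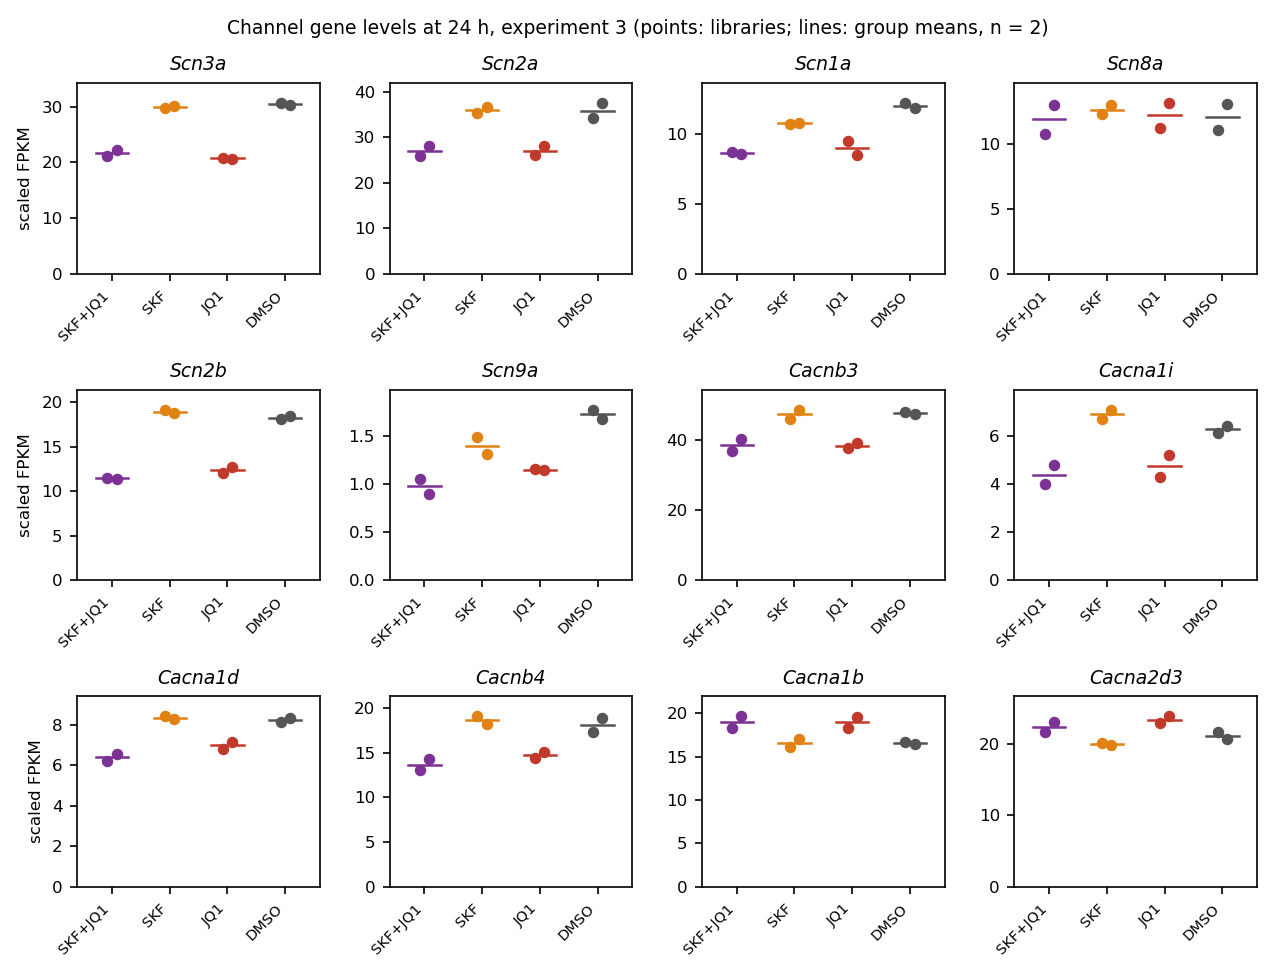
Scaled FPKM in every 24 h library for 12 channel genes, with SKF plus JQ1, SKF, JQ1 and DMSO from left to right; points are libraries and lines are means of 2. Every axis starts at 0, and Scn3a, Scn2b and Cacnb3 show the 4 JQ1 libraries below the 4 others with wide gaps, while those of Scn8a overlap.

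Among calcium channel pores Cacna1i and Cacna1d fell and Cacna1b rose. Cacna1i, a T-type pore, had 4.28 and 5.22 scaled FPKM with JQ1 and 6.12 and 6.43 with DMSO, and 4.0 and 4.77 with SKF plus JQ1 and 6.71 and 7.08 with SKF. The groups did not overlap (-0.37 ± 0.09, limma, adjusted p = 0.00212, and -0.60 ± 0.09 with SKF, adjusted p = 2.69e-05), though the first call was lost without JQ1 replicate 5 (-0.24, adjusted p = 0.0543). Cacna1d had 6.79 and 7.17 with JQ1 and 8.12 and 8.36 with DMSO, and 6.24 and 6.57 with SKF plus JQ1 and 8.42 and 8.27 with SKF. It too did not overlap (-0.22 ± 0.07, limma, adjusted p = 0.0159, and -0.36 ± 0.07 with SKF, adjusted p = 0.000570). The call without SKF was lost without DMSO replicate 6 (-0.21, adjusted p = 0.0788), without JQ1 replicate 5 (-0.19, adjusted p = 0.103) and with voom (-0.11, adjusted p = 0.200).

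Cacna1b had 18.3 and 19.6 scaled FPKM with JQ1 and 16.7 and 16.5 with DMSO, and 18.3 and 19.6 with SKF plus JQ1 and 16.1 and 17.0 with SKF. All 4 libraries with JQ1 were above all 4 without, by log2 changes of 0.19 ± 0.07 (limma, adjusted p = 0.0235) and 0.19 ± 0.07 with SKF (adjusted p = 0.0235). Neither rise was called without size factors (0.09, limma, adjusted p = 0.273, and 0.12, adjusted p = 0.158). The rise without SKF was also lost without either DMSO library or JQ1 replicate 6, with adjusted p up to 0.167, and that with SKF without SKF replicate 5 or SKF plus JQ1 replicate 6, with adjusted p up to 0.177.

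Of the other calcium channel pores only Cacna1e was called, and only with SKF. It had 18.9 and 21.9 scaled FPKM with JQ1 and 22.3 and 24.9 with DMSO (-0.21 ± 0.11, limma, adjusted p = 0.119). With SKF present it had 18.3 and 22.0 in SKF plus JQ1 libraries and 23.5 and 25.3 in SKF libraries (-0.27 ± 0.11, limma, adjusted p = 0.0434), a call lost under 7 of the 23 omissions of 1 library, with no filter on low values (adjusted p = 0.102) and with voom (adjusted p = 0.0555). Without size factors Cacna1e was also called without SKF (-0.30, limma, adjusted p = 0.0156). The adjusted p with SKF was 0.361 without SKF plus JQ1 replicate 5 (-0.15), 0.200 without SKF replicate 6 and 0.0634 without SKF replicate 5, and it was 0.0512 to 0.0515 without either JQ1 library of experiment 1 or either SKF library of experiment 2. For the P/Q-type Cacna1a, the L-type Cacna1c and the T-type Cacna1g and Cacna1h the log2 changes with JQ1 were -0.03, 0.09, 0.07 and -0.04, each with an SE of 0.06 to 0.08 and none called. The 10 calcium channel pores summed to 90.8 and 100.01 scaled FPKM with JQ1 against 95.6 and 100.97 with DMSO, and to 88.8 and 99.1 with SKF plus JQ1 against 100.2 and 104.3 with SKF.

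Of the 4 cytoplasmic beta subunits of calcium channels 3 fell with JQ1 (28.6% of all genes did) and 4 with SKF plus JQ1 against SKF (28.7% of all genes did). Cacnb3 had 37.6 and 39.0 scaled FPKM with JQ1 and 47.9 and 47.5 with DMSO, and 36.9 and 40.2 with SKF plus JQ1 and 46.0 and 48.6 with SKF. Cacnb4 had 14.4 and 15.0 with JQ1 and 17.3 and 18.9 with DMSO, and 13.0 and 14.2 with SKF plus JQ1 and 19.1 and 18.2 with SKF. Cacnb2 had 5.50 and 5.81 with JQ1 and 7.36 and 8.28 with DMSO, and 6.24 and 7.04 with SKF plus JQ1 and 8.71 and 8.39 with SKF. For all 3 the 4 libraries with JQ1 lay below the 4 without, at log2 changes of -0.31 ± 0.05, -0.29 ± 0.07 and -0.43 ± 0.09 without SKF and of -0.29 ± 0.05, -0.44 ± 0.07 and -0.34 ± 0.09 with it. The limma adjusted p-values ran from 2.41e-05 to 0.00496, and only Cacnb2 with SKF lost its call when a library was left out (-0.26, adjusted p = 0.0643, without SKF plus JQ1 replicate 5). Cacnb1 had 21.0 and 22.4 with JQ1 and 21.3 and 23.4 with DMSO, which overlapped, and 19.8 and 22.6 with SKF plus JQ1 and 24.1 and 24.7 with SKF (-0.20 ± 0.06, limma, adjusted p = 0.0148, lost without SKF plus JQ1 replicate 5, at -0.10, and without SKF replicate 6, at -0.18).

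The alpha2delta subunits, which are the binding sites of gabapentin where Cacna2d1 and Cacna2d2 are concerned, did not move as one. Cacna2d3 had 23 and 23.9 scaled FPKM with JQ1 and 21.6 and 20.6 with DMSO, and 21.7 and 23.1 with SKF plus JQ1 and 20.1 and 19.9 with SKF. Its libraries with JQ1 were all above those without (0.15 ± 0.06, limma, adjusted p = 0.0373, and 0.16 ± 0.06 with SKF, adjusted p = 0.0241), but neither call held without size factors (0.05 and 0.09, adjusted p = 0.540 and 0.258). The call without SKF was lost under 3 of 7 alternative settings, that one included. It was also lost without DMSO replicate 6, JQ1 replicate 5 or JQ1 replicate 6 (adjusted p up to 0.196). The call with SKF was lost without SKF replicate 5, SKF replicate 6 or SKF plus JQ1 replicate 6 (adjusted p up to 0.188). Cacna2d2 had 35.1 and 38.6 with JQ1 and 39.0 and 42.3 with DMSO (-0.14 ± 0.07, limma, adjusted p = 0.107). With SKF it had 32.8 and 39.1 in SKF plus JQ1 libraries and 39.4 and 42.7 in SKF libraries (-0.19 ± 0.07, limma, adjusted p = 0.0312, lost without SKF plus JQ1 replicate 5, at -0.07, and without SKF replicate 6, at -0.14). That call was also lost when low genes were kept in the fit (adjusted p = 0.0827) and when the fit held the libraries of experiment 3 only (adjusted p = 0.0832), while without size factors Cacna2d2 was called without SKF too (-0.24, limma, adjusted p = 0.00773). Cacna2d1 was not called (0.08 ± 0.09 and -0.11 ± 0.09 with SKF).

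Over the 4 libraries with JQ1 and the 4 without at 24 h, 11 of the 23 genes were lower in every library (29.6% of all genes were) and 2 were higher in every library (29.4% of all genes). Of the 13 calls with JQ1 against DMSO, 8 were kept under each omission of 1 of the 23 libraries, those of Scn1a, Scn2a, Scn2b, Scn3a, Scn9a, Cacnb2, Cacnb3 and Cacnb4. Of the 15 calls with SKF plus JQ1 against SKF, 9 were kept. How many calls were kept over all genes was not counted. Whether SKF changed the JQ1 effect was tested as an interaction. At 24 h 0 of the 23 were called (0.0429% of all genes), as were 0 at 60 min (0.00714% of all genes), with 0 of 23 under 0.05 before adjustment and 0 calls from voom at either time. The smallest p at 24 h was that of Scn2b (-0.16 ± 0.09, limma, adjusted p = 0.879), and 95% intervals over the 23 genes reached from -0.50 to 0.85.

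The JQ1 effect at 24 h was more negative than at 60 min for 8 channel genes (19.6% of all genes were called lower) and more positive for 0 (17.0% of all genes were called higher). These were 4 sodium channel pores (Scn3a, Scn2a, Scn9a and Scn1a), the sodium channel beta subunit Scn2b, the T-type pore Cacna1i and the calcium channel beta subunits Cacnb4 and Cacnb3. Scn3a had 29.6 and 30.9 scaled FPKM with JQ1 and 29.7 and 30.5 with DMSO at 60 min, which overlapped, and its difference between effects was -0.55 ± 0.06 (limma, adjusted p = 2.33e-06). The 2 effects come from experiments 1 and 3, each with its own DMSO libraries.

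The 5 sodium channel pores that fell with JQ1 lie in 1 interval of chromosome 3, within 51532627 to 52849907 of Rnor_6.0, in the order Scn3a, Scn2a, Scn1a, Scn9a and Scn7a. The files list 12 genes in that interval, of which 8 were tested. The 3 tested genes there that are no channel gene lie between Scn2a and Scn1a. Csrnp3, a transcription factor, had a log2 change of -0.01 ± 0.05 with JQ1 (limma, adjusted p = 0.870) and of -0.01 ± 0.05 with SKF present (adjusted p = 0.863). Galnt3, a glycosyltransferase gene, had -0.21 ± 0.14 (limma, adjusted p = 0.205) and -0.36 ± 0.14 with SKF present (adjusted p = 0.0343) at a mean of only 0.458 scaled FPKM. Ttc21b, a gene of cilia, had 0.14 ± 0.08 (limma, adjusted p = 0.181) and 0.21 ± 0.08 with SKF present (adjusted p = 0.0447). Csrnp3, which was not called, was as abundant as its neighbour Scn2a, at means of 35.5 and 35.04 scaled FPKM over all libraries. Whether the changes of these neighbours differed from those of the channel genes was not tested. Scn2b on chromosome 8 and Scn8a on chromosome 7 lie outside the cluster.

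**Figure D5:**
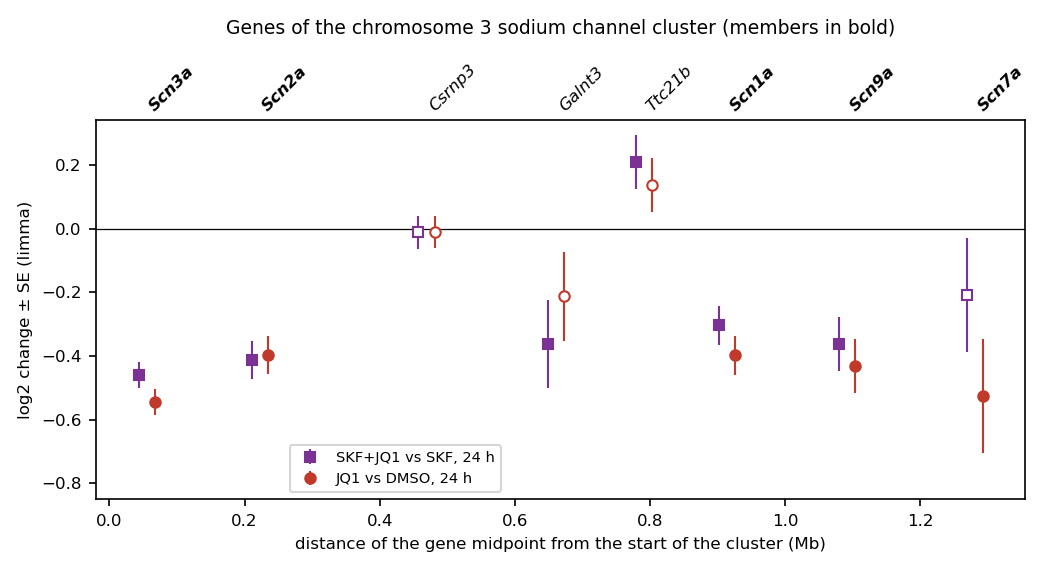
Log2 change ± SE (limma, y axis) of the 8 tested genes of the chromosome 3 sodium channel cluster against the distance of each gene's midpoint from the start of the cluster in megabases, for SKF plus JQ1 against SKF (squares) and JQ1 against DMSO (circles) at 24 h. Filled symbols have an adjusted p under 0.05. The 5 channel genes lie at -0.21 or lower, with Scn7a not filled for SKF plus JQ1 against SKF. Of the other genes, Csrnp3 lies at -0.01 in both comparisons. Galnt3 lies at -0.21 with JQ1 and -0.36 with SKF present, and Ttc21b at 0.14 and 0.21, both filled only with SKF present.

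Genes of the channels' partners were read in the same way at 24 h, beside 28.6% of all genes called lower and 28.1% called higher with JQ1. The sodium channel list was broad and also held axon initial segment genes and the separate leak channel Nalcn with Unc79 and Unc80. Its counts are thus not of sodium channel partners alone. Of the 16 tested partners of sodium channels, 7 fell and 3 rose with JQ1, with a median log2 change of -0.10 beside 0.01 over all genes. Nalcn, the sodium leak channel that sets the resting potential, changed by -1.36 ± 0.07 (limma, adjusted p = 3.35e-10), and Unc80, a subunit of its complex, by -0.49 ± 0.11 (adjusted p = 0.000985), while Unc79, the other subunit, was not called (0.02 ± 0.06). Fgf13 and Fgf14, intracellular proteins that bind the tail of sodium channel pores, changed by -0.37 ± 0.08 (limma, adjusted p = 0.000601) and -0.26 ± 0.09 (adjusted p = 0.0193). Among axon initial segment genes Nfasc rose by 0.24 ± 0.05 (limma, adjusted p = 0.00130) and Ank3, which anchors the pores there, was not called (-0.11 ± 0.09, adjusted p = 0.319).

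Of the 18 tested partners of calcium channels 10 fell and 0 rose with JQ1 (28.6 and 28.1% of all genes did), with a median log2 change of -0.31 beside 0.01 over all genes. This list also took in Cacng2 and its family, so its counts are not of calcium channel partners alone. With SKF plus JQ1 against SKF 12 fell and 1 rose (28.7 and 27.7% of all genes did). Rem2 and Gem, small GTPases that restrain calcium channels through their beta subunits, changed by -1.35 ± 0.11 (limma, adjusted p = 4.79e-08) and -0.53 ± 0.15 (adjusted p = 0.00659). Stac2, an adaptor of L-type channels, changed by -0.89 ± 0.06 (limma, adjusted p = 5.97e-09), and Cacng2, which despite its name serves AMPA receptors, by -0.79 ± 0.06 (adjusted p = 5.47e-09). Of the release-site scaffolds Rims2 fell by 0.24 ± 0.04 (limma, adjusted p = 0.000142) and Rims1 was not called (-0.01 ± 0.06, adjusted p = 0.879). At 60 min 0 of 16 and 0 of 18 partners were called with JQ1 (4.4% of all genes were). Before adjustment 0 and 3 had a limma p under 0.05.

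Markers of cell types moved in the same 24 h libraries, and their part in the channel results was not tested. Their counts stand beside the 28.6% of all genes called lower and the 28.1% called higher with JQ1. All 6 microglial markers fell with JQ1, with summed levels of 3.76 and 5.61 FPKM with JQ1 against 30.1 and 35.8 with DMSO, and of 0.385 and 1.19 with SKF plus JQ1 against 12.5 and 17.3 with SKF. Of 7 astrocyte markers 3 fell and 0 rose, at sums of 320 and 377 FPKM with JQ1 against 374 and 452 with DMSO, and of 355 and 472 with SKF plus JQ1 against 355 and 378 with SKF. Of 7 oligodendrocyte lineage markers 3 fell and 3 rose. Of 9 neuronal markers 2 fell (Tubb3 by 0.50 ± 0.05 and Rbfox3 by 0.24 ± 0.08 on the log2 scale) and 1 rose, and their sums were 2507 and 2641 FPKM with JQ1 against 2597 and 2859 with DMSO, which overlapped. With SKF present the neuronal sums were 2310 and 2563 FPKM in SKF plus JQ1 libraries against 2688 and 2723 in SKF libraries, which did not overlap. Of 10 markers of striatal projection neurons 3 fell, with Drd1, the receptor of SKF, at -1.07 ± 0.09 (limma, adjusted p = 6.94e-08), and 1 rose. The sums of these 10 were 441 and 507 FPKM with JQ1 against 456 and 530 with DMSO, which overlapped, and 369 and 469 with SKF plus JQ1 against 502 and 523 with SKF, which did not. Drd1 was also lower with JQ1 against DMSO at 60 min (-1.01 ± 0.09, limma, adjusted p = 1.79e-06). Snap25, Syt1, Gad1 and Gad2 were not called with JQ1 against DMSO at 24 h, at log2 changes of -0.03 to 0.05. They are only some of the 9 neuronal markers and do not stand for the list.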

How the data were processed

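Of 24 samples named in the labels, 23 have a library in use; for SKF plus iBD2, replicate 1 alone was used, and its replicate 2 was not analysed here. Per the submitters' processing notes, the tools were DESeq2, FastQC, STAR, StringTie and Trim Galore and the genome build Rnor_6.0, with no versions given. The deposited files hold FPKM and coverage (mean read depth per base) of every transcript, as the authors computed them. The strand setting of the counting is not stated in the sources at hand. FPKM values are not counts. They were summed over the transcripts of each gene identifier and divided by a size factor, the median ratio to the geometric mean over genes.

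A gene entered the tests when 2 or more libraries reached an FPKM of 0.5 and its longest transcript had 200 nt or more. Tests used limma 3.58.1 in R 4.3.3 on log2(FPKM + 0.5), in 1 fit with a mean for each of 12 groups (11 residual degrees of freedom), and p-values were adjusted by Benjamini-Hochberg over 13999 genes in each comparison. A gene is called at an adjusted p under 0.05. The procedure was tested on simulated data with known changes. Far fewer genes changed in that simulation than were called with JQ1 at 24 h, so it does not bear on those calls. Reads were estimated from coverage times length over 101 nt. The alternatives were leaving out size factors, pseudocounts 0.1 and 1, dropping the filter, a replicate block, voom on estimated reads, each experiment alone, and omission of each library.

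Of the 32 channel genes 2 are not reported here: they enter no count, sum or plot of channel genes, and remained in the fits over all genes. The channel genes and the partner and marker lists were chosen with earlier results of these data known. Genes were described by this rule: every channel gene by level, and with per-library values up to 5 called rises and 5 called falls in each comparison, plus the main neuronal subunits where a result turns on them. The counts of genes whose libraries do not overlap, the Scn8a share and the comparison of SKF between experiments 1 and 2 were chosen after the data were seen. Promoters came from RefSeq (GRCr8) and were not lifted between builds.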

Additional observations from a re-analysis of the deposited data

Results flagged for a closer look

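The effect of JQ1 differed between 24 h (experiment 3) and 60 min (experiment 1) past the threshold for 8 channel genes, by limma's test of the difference of the 2 effects on the log2 scale; time and experiment cannot be told apart. The differences, 24 h minus 60 min, were -0.55 for Scn3a, -0.55 for Scn2b, -0.42 for Scn2a, -0.40 for Cacna1i, -0.39 for Scn9a, -0.39 for Scn1a, -0.37 for Cacnb4 and -0.34 for Cacnb3. Of the 8 calls 6 were kept under each omission of 1 library, which was not counted over all genes. Cacna1i lost its call in 5 omissions, with adjusted p up to 0.128 without JQ1 24 h replicate 5, and with no filter on low values (-0.39, adjusted p = 0.0531). Scn9a lost its call in 2, with adjusted p of 0.0510 without JQ1 60 min replicate 5 and 0.0539 without DMSO 24 h replicate 5.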

How the results depend on the processing

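With 2 libraries in nearly every group and 1 for SKF plus iBD2, small changes of low genes were not detectable, and read numbers are estimates. No channel gene called at 24 h reversed its direction under any alternative. For JQ1 against DMSO at 24 h, the number called was 12 to 16, against 13, over 7 alternatives. The numbers that moved by more than 1.5 times were these. For SKF against DMSO at 60 min in experiment 2, 1 gene was called with FPKM as deposited and 1 with voom, against 0. For JQ1 against DMSO at 60 min, 1 was called with no filter on low values and 0 to 1 over the omissions of 1 library (1 without DMSO replicate 5), against 0. For SKF against DMSO at 24 h, 1 was called with voom, against 0. The cause was not tested.

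With the replicate block, 14 channel genes were called for JQ1 against DMSO at 24 h against 13 without it, and 16 for SKF plus JQ1 against SKF against 15. Cacna1e and Cacna2d2 were called for JQ1 against DMSO at 24 h with it (adjusted p = 0.0333 and 0.0336). Deviations of same-numbered libraries correlated at -0.27 to 0.37 over 15 pairs of groups, 5 of them above 0.1. The labels do not tell whether equal numbers mark a shared culture, and the main fit assumed no pairing. In each 24 h group replicate 5 had a higher astrocyte marker sum and a lower Scn8a level than replicate 6. Whether same-numbered libraries share a source was not tested.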

Other observations

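The channel genes under the filter are given as values, and the 5 described were picked after their values were seen. Scn4b, which is high in adult striatum, had 0.0168 and 0.0232 scaled FPKM with JQ1 and 0.0921 and 0.10 with DMSO at 24 h, and 0.00587 and 0.0368 with SKF plus JQ1 and 0.139 and 0.105 with SKF. At 60 min it had 0.167 and 0.157 with JQ1 and 0.0692 and 0.0585 with DMSO, and 0.102 and 0.0833 with SKF plus JQ1 and 0.136 and 0.125 with SKF. Its level was thus lower with JQ1 than with DMSO at 24 h and higher at 60 min, in both libraries each time. With SKF present, however, it was lower with JQ1 at 60 min as well. The Scn4b values rest on 1.96 to 64.7 estimated reads in a library, so no change with time is read from them. Also at 24 h, Scn11a had 0.0123 and 0 with JQ1 and 0.0986 and 0.0668 with DMSO, and Cacna1s had 0.0284 and 0 with JQ1 and 0.0933 and 0.139 with DMSO. Scn4a had 0.0393 and 0.0160 with JQ1 and 0.0628 and 0.0685 with DMSO, and Scn10a had 0.00418 and 0.00875 with JQ1 and 0.0283 and 0.0243 with DMSO. The 7 genes had at most 113 estimated reads in a library and were not tested with the filter in place.

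The division of Cacna1c FPKM among its transcripts varied between libraries far more than the gene's sum. The longest of 3 transcripts held 29.6 and 27.9% of the gene's FPKM with JQ1 at 24 h and 75.3 and 76.7% with DMSO, yet 29.3 and 79.4% in the 2 SKF plus JQ1 libraries and 29.6 and 53.6% in the 2 SKF libraries. The gene's sum was 14.1 to 16.6 scaled FPKM in those 8 libraries. The longest transcript of Cacna1i ranged from 0 to 94.1% over the 23 libraries and that of Cacna1g from 16.1 to 90.5%.

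Across the 23 tested genes the JQ1 change at 24 h had a Pearson r of 0.32 and a Spearman rho of 0.34 with the log10 gene span. With the log2 mean DMSO level r was 0.29 and rho 0.10. These coefficients were not tested and were not computed over all genes. Genes are not independent replicates and share the libraries, so these are descriptions of 23 points.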
